A study of Mus musculus with 30 samples.

Results

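The mRNA levels of *Srebf1* and of 9 genes of hepatic fatty acid synthesis (*Fasn*, *Acaca*, *Acacb*, *Acly*, *Scd1*, *Elovl6*, *Me1*, *Thrsp*, and *Pnpla3*) were followed in mouse liver with age, with the time of day, and after deletion of *Egr-1* in hepatocytes. The 10 genes were chosen by name, by symbol in 1 table of counts and by Ensembl identifier in the other. All 10 were found in both tables, among 54429 symbols and 55471 identifiers. In the time course, male C57BL/6J wild-type mice of 2, 6, and 12 months were sampled at zeitgeber time (ZT, hours after lights on) 1, 5, 9, 13, 17, and 21, with 1 liver library for each age and ZT (18 libraries). In the genotype cohort, livers of liver-specific *Egr-1* KO mice (floxed *Egr-1* crossed with *Alb-Cre*) and WT mice were sampled at 2, 6, and 12 months (12 libraries). Each age and genotype there had 1 library at the peak (H) and 1 at the trough (L) of Egr-1 protein, which per the study's methods were ZT13 and ZT17 at 2 months, ZT9 and ZT21 at 6 months, and ZT5 and ZT21 at 12 months. Per the study's methods the KO line, given as strain 129, had been backcrossed to C57BL/6J, the controls were littermates, and all mice were male and had chow at will. *Alb-Cre* acts in hepatocytes, so the other cells of a KO liver keep *Egr-1*. The sources used here do not say whether a library held RNA of 1 mouse or of several. A figure legend of the study gives several mice per group for its WT and KO transcriptomes, while the counts hold 1 library per group.

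De novo lipogenesis makes fatty acids from carbohydrate. Acly releases acetyl-CoA from citrate in the cytosol, acetyl-CoA carboxylases turn it into malonyl-CoA, and fatty acid synthase builds palmitate from both with NADPH, part of which malic enzyme supplies. Insulin and feeding raise the pathway in liver through the transcription factor SREBP-1c, a product of *Srebf1*, and glucose raises it through ChREBP (*Mlxipl*), so that it normally runs high in the dark, when mice eat, and low during the rest phase.

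The libraries held 13375377 to 16557378 counts in the time course and 13747706 to 21748956 in the cohort, where the 6 H libraries (18764485 to 21748956) all lay above the 6 L libraries (13747706 to 16633981). Levels are given as CPM, the share of a library's counts that fall on a gene, scaled to a common total with edgeR's TMM factors. The tissue label was borne out by hepatocyte markers (such as *Alb*, *Ttr*, and *Cps1*), 8 genes whose summed level was 66253 to 129762 CPM in the time course. In the cohort that sum was 76615 to 95686 CPM in the WT libraries and 47007 to 62132 CPM in the libraries labelled KO, without overlap. *Alb* carried this difference: it was 52419 to 66783 CPM in WT and 26339 to 36312 CPM in KO, while the other 7 markers summed to 23775 to 28904 CPM and 20668 to 25820 CPM, with overlap, and only *Alb* and *Fgb* passed as lower. In whole liver, fewer cells of a type and less RNA per cell cannot be told apart. The 6-month libraries of the time course stood apart in the acute-phase gene *Saa2*. It was at 3079 to 17176 CPM in these 6 libraries, against 17.1 to 39.6 CPM at 2 months and 5.73 to 538 CPM at 12 months. *Fgb*, an acute-phase gene among the hepatocyte markers, overlapped between the ages. It was at 3849 to 15527 CPM at 6 months, 2668 to 4613 CPM at 2 months, and 2073 to 4380 CPM at 12 months. Its highest library was that of 6 months, ZT5, which also had the lowest hepatocyte marker sum. In the cohort *Saa2* was at 19.7 to 212 CPM at 6 months, against 20.2 to 166 CPM at 2 months and 16.2 to 86.1 CPM at 12 months. Both genes are named after their values were seen. Since each group had 1 library, the 6 time points of an age and the 6 pairs of WT and KO stood in for replicates, and the p-values below measure only the spread among these libraries.

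Promoters of the members were read from RefSeq (GRCm38.p6) for letters that lipogenic, clock, or Egr factors are known to bind, on both strands, from 250 bases before to 50 bases after each start. A window was found for 9 of the 10 members (12 windows), with none for *Scd1*. The CCAAT box (CCAAT, the site of NF-Y, a partner of SREBP) was found for 7 of these 9 members, *Srebf1*, *Fasn*, *Acacb*, *Acly*, *Me1*, *Thrsp*, and *Pnpla3*, against 41.1% of all 27025 genes with a window (8 of 12 member windows, against 37.4% of all 32851 windows). The GC box (GGGCGG, the site of Sp1-type factors) was found for 4 of 9, *Srebf1*, *Acly*, *Me1*, and *Pnpla3*, against 38.2% of genes (5 of 12 windows, against 35.7%). The Egr element (GCGNGGGCG, which can share letters with a GC box) was in the window of *Me1* alone, at -47 to -39 on the reverse strand, where it overlapped GC boxes, against 6.27% of genes (1 of 12 windows, against 5.55%). Neither the E-box (CACGTG, 7.15% of all windows) nor the SREBP element as spelled TCACNCCAC (1.24%) matched a member, which says only that these letters are not in these windows. The 250 bases before the start are printed 5' to 3' for *Srebf1* as the regulator (its most downstream start), for *Fasn* and *Thrsp* as members with several CCAAT boxes, for *Acly* with its 4 GC boxes, and for *Me1* with the Egr element; all 5 lie on the minus strand, and capitals mark the CCAAT and GC boxes (ATTGG and CCGCCC on the reverse strand).
Srebf1, chr11:60210472-60210721: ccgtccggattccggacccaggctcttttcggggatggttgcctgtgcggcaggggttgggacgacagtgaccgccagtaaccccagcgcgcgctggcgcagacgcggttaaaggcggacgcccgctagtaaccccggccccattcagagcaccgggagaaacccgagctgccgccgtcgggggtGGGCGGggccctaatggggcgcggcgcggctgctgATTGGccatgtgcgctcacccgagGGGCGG
Fasn, chr11:120824548-120824797: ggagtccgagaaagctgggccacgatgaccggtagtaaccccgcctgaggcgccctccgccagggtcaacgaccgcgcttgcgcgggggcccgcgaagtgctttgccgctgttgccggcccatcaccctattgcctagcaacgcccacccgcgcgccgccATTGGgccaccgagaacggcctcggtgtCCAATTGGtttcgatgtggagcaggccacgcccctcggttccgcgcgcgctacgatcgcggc
Acly, chr11:100528001-100528250: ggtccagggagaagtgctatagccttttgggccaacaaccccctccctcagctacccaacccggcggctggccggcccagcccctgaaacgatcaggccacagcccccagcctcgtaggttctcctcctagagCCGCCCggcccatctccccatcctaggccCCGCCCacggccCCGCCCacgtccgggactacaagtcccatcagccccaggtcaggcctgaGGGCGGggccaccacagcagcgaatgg
Me1, chr9:86695915-86696164: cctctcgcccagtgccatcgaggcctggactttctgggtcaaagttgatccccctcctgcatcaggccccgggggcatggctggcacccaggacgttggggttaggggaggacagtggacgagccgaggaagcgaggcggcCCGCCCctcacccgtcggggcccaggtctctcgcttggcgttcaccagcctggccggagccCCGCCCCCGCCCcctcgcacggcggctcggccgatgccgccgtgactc
Thrsp, chr7:97417551-97417800: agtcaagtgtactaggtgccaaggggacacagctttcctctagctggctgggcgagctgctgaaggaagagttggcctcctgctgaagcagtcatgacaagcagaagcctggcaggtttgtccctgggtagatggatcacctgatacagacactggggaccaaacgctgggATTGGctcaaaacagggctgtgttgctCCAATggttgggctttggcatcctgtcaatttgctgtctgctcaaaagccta
In *Fasn* the boxes lie at -90 to -86, -62 to -58, and -59 to -55, so that the last pair shares letters as CCAATTGG, and in *Thrsp* they lie at -79 to -75 and -52 to -48.

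Per kilobase of exons, the members spanned a wide range of levels in the time course. *Scd1*, which introduces the double bond of oleate, was the most abundant, with a median over the 18 libraries of 1131 CPM per kb, followed by *Thrsp* (Spot 14, a lipogenic cofactor) at 396 CPM per kb. *Srebf1* (52.7 CPM per kb), *Acly* (47.7), *Fasn* (42.7), and *Me1* (39.0) came next, and ranges of these neighbours over the libraries overlapped. *Elovl6*, which lengthens palmitate to stearate, stood at 15.1 CPM per kb, *Acacb* at 7.59, *Acaca* at 3.23, and *Pnpla3*, a lipid droplet protein and lipogenic target, at 0.405 CPM per kb. The messages of *Scd1* alone took from 0.244% of all counts (6 months, ZT5) to 2.04% (12 months, ZT21). *Pnpla3* rested on 0 to 90 counts per library in the time course and on 12 to 133 in the cohort, so its values are the least precise. At 6 months, ZT5 and ZT9 it had 0 counts, which allow up to 0.278 and 0.265 CPM by exact Poisson 95% intervals that cover counting error only.

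**Figure D1:**
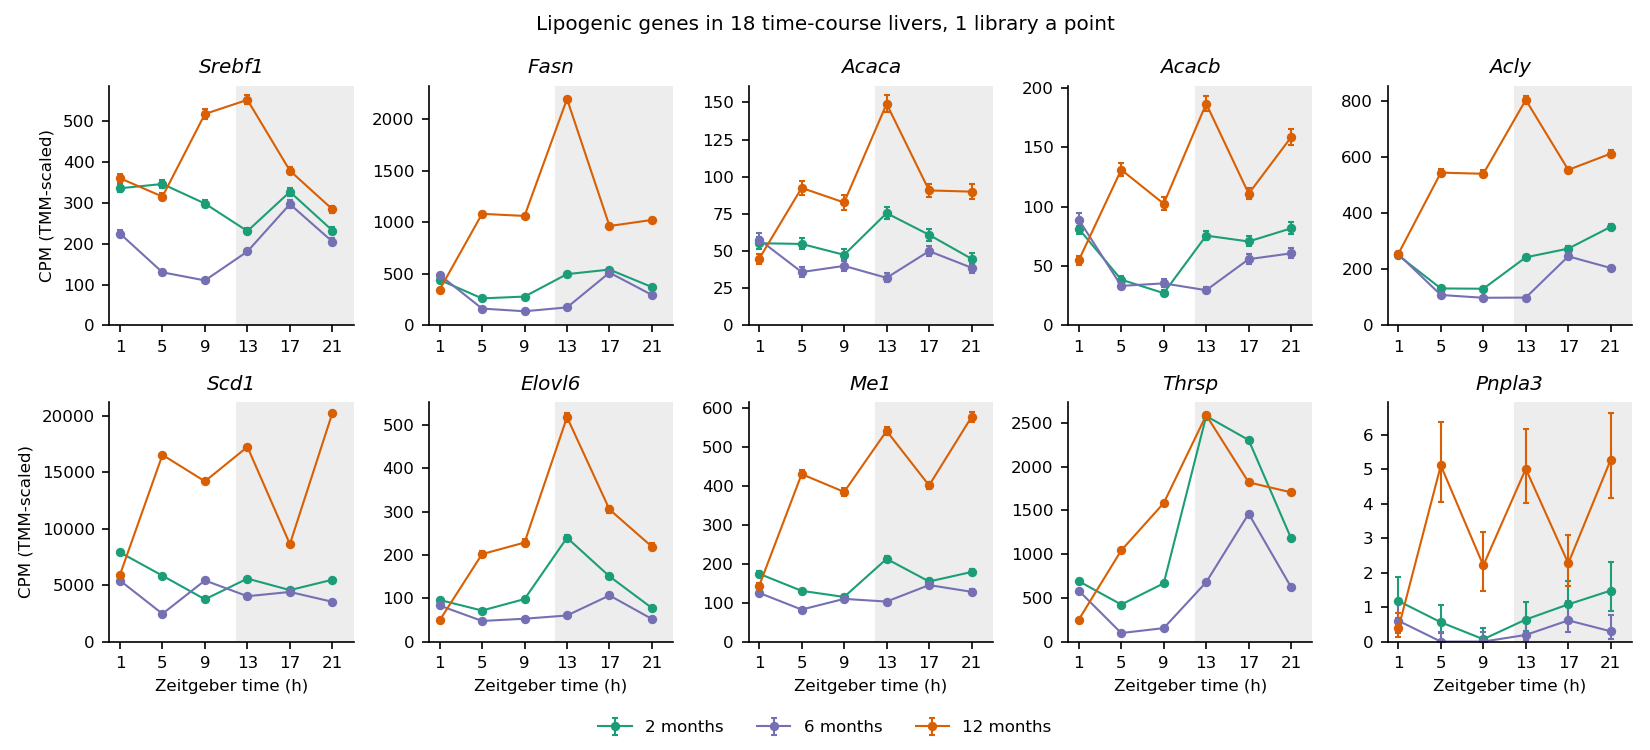
Level of each member (CPM, linear axis from 0) against zeitgeber time (h) in the 18 time-course libraries, 1 line for each age, with exact Poisson 95% intervals as bars and the dark phase shaded. The 12-month line (orange) runs above the other ages from ZT5 or ZT9 on in most panels and falls to their level at ZT1, where *Fasn* was at 346 CPM against 443 CPM at 2 months, while the 6-month line (purple) lies lowest at ZT5 to ZT13 for most members.

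From 2 to 6 months 5 of the 10 members were lower. All 10 members had a negative log2 fold change, with a median of -0.54 against 0.00 over the 13895 genes tested, and *Srebf1*, *Elovl6*, *Me1*, *Thrsp*, and *Pnpla3* passed the test as lower (edgeR's quasi-likelihood test with ZT as block, adjusted p under 0.05), against 6.01% of all genes tested. None passed as higher (5.53% of all genes). At an unadjusted p under 0.05 were 8 of 10, all of them lower (26.3% of all genes, in either direction). DESeq2 called 8 lower and 0 higher, and its own share of all genes is not given here. The 2 ages overlapped for every member, whereas 2.09% of all genes lay wholly lower at 6 months. Lower at all 6 ZT were 5 members (*Srebf1*, *Elovl6*, *Me1*, *Thrsp*, and *Pnpla3*), against 9.25% of all genes.
The largest change of the abundant members was that of *Thrsp*, whose levels ran from 424 CPM through a median of 936 to 2580 CPM at 2 months and from 97.6 through 602 to 1463 CPM at 6 months (log2 fold change -1.35 ± 0.25 SE, adjusted p = 0.0073). The 6-month maximum lay within the 2-month range and 2 of its libraries, ZT5 and ZT9, lay below it. *Srebf1* went from 230.3 to 345 CPM (median 312) at 2 months to 110.0 to 296 CPM (median 193) at 6 months (-0.69 ± 0.18, edgeR adjusted p = 0.0330). The ratio between the ages was furthest from 1 at ZT9, with 298 CPM against 110.0 CPM, and nearly as far at ZT5, with 345 CPM against 129.7 CPM. *Elovl6* fell from a median of 97.1 CPM (71.6 to 239.6) to 56.5 CPM (47.6 to 106.5), a log2 fold change of -0.80 ± 0.19 (adjusted p = 0.0204). *Me1*, the cytosolic malic enzyme, fell from a median of 164 CPM (114.8 to 213) to 118 CPM (82.3 to 145), or -0.49 ± 0.12 (adjusted p = 0.0297). *Pnpla3*, at 1 to 19 counts per library at 2 months and 0 to 9 at 6 months, had a log2 fold change of -1.64 ± 0.47 (adjusted p = 0.0474).
The enzymes of the core steps did not pass in edgeR as reported. DESeq2 called *Fasn*, *Acly*, and *Acaca* lower, and edgeR without a filter on low counts called these and *Scd1*. *Fasn* (-0.59 ± 0.19, adjusted p = 0.0668), *Acly* (-0.49 ± 0.15, 0.0586), *Acaca*, the cytosolic carboxylase (-0.43 ± 0.14, 0.0714), and *Scd1* (-0.42 ± 0.19, 0.197) were each lower at 5 of 6 ZT. *Acacb*, the carboxylase at mitochondria whose malonyl-CoA restrains fatty acid oxidation, was lower at 4 of 6 ZT (-0.32 ± 0.18, 0.288). At ZT1 4 of 10 members were higher at 6 months and the median log2 ratio was -0.23, while at ZT13 all 10 were lower with a median of -1.32. The count of 5 called members went to 3 without ZT1, ZT13, or ZT21 and to 2 without ZT5 or ZT9. *Thrsp* alone remained called without any 1 time point, and in 1 fit of all 18 libraries only *Srebf1* remained called. Other genes moved with this comparison. Besides *Saa2*, the 5 cholangiocyte markers summed to 37.5 to 145 CPM at 6 months against 29.7 to 46.6 CPM at 2 months (3 of the 4 tested higher), and the 5 Kupffer cell markers to 376 to 591 CPM against 371 to 426 CPM (2 of 5 higher). Their part in the result was not tested, and since all 6 libraries of 6 months had high *Saa2*, a difference with age and one that goes with *Saa2* cannot be told apart.

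From 2 to 12 months the direction was the opposite. All 10 members had a positive log2 fold change, with a median of 1.15 against 0.00 over the 14001 genes tested. The edgeR test called 8 of 10 as higher, against 7.67% of all genes tested, and none as lower (6.85% of all genes). At an unadjusted p under 0.05 were 9 of 10, all of them higher (28.9% of all genes, in either direction). DESeq2 called 6 higher and 0 lower, and its own share of all genes is not given here. No member had all 12-month libraries above all 2-month libraries, as 2.15% of all genes did.
*Fasn* went from 263 to 543 CPM at 2 months (median 408) to 346 to 2199 CPM at 12 months (median 1044), a log2 fold change of 1.37 ± 0.27 (edgeR, adjusted p = 0.0056). The ages overlapped only because of the 12-month ZT1 library, since the other 5 libraries of 12 months lay at 966 CPM or more. *Scd1* rose from a median of 5532 CPM (3746 to 7909) to 15376 CPM (5922 to 20259), or 1.27 ± 0.25 (adjusted p = 0.0054). Here too all 12-month libraries but that of ZT1 lay above every 2-month library. *Acly* rose from a median of 246 CPM (131 to 352) to 549.9 CPM (255 to 804), or 1.29 ± 0.23 (adjusted p = 0.0031). It was the only member higher at 12 months at all 6 ZT, as were 9.57% of all genes. *Me1* rose from 164 CPM to 416 CPM in the median (12-month range 143 to 578), or 1.30 ± 0.22 (adjusted p = 0.0022), the smallest p of the members. *Acaca* (0.65 ± 0.14, adjusted p = 0.0096), *Acacb* (1.02 ± 0.25, 0.0176), and *Elovl6* (0.94 ± 0.25, 0.0275) rose as well. *Pnpla3*, at 6 to 90 counts per library at 12 months, rose by 1.92 ± 0.49 (0.0215).
The regulator and the cofactor did not pass this test. *Srebf1* was 284 to 551 CPM at 12 months (median 369) against 230.3 to 345 CPM (0.42 ± 0.16, adjusted p = 0.0875). *Thrsp* was 251 to 2591 CPM (median 1646), with nearly the same maximum at ZT13 as at 2 months, 2591 against 2580 CPM (0.24 ± 0.29, 0.638). The 7 adipocyte markers, of another lipogenic cell type, summed to at most 23.7 CPM at 12 months and 26.9 CPM at 2 months. *Adipoq*, *Plin1*, *Lep*, and *Retn* each had a median of 0 CPM over the time course. The medians of the other adipocyte markers were 17.7 CPM for *Fabp4*, 2.22 CPM for *Adrb3*, and 0.694 CPM for *Cfd*. The cholangiocyte markers summed to 16.3 to 28.3 CPM at 12 months, below all libraries of 2 months (29.7 to 46.6 CPM, 1 of the 4 tested lower), and the Kupffer cell markers to 299 to 450.2 CPM against 371 to 426 CPM, with 0 of 5 called (edgeR) and 4 at an unadjusted p under 0.05; their part in the result was not tested. The count of 8 went to 5 without ZT5 or without ZT13. *Fasn*, *Acaca*, *Acly*, *Scd1*, and *Me1* were called in edgeR without each time point in turn. With all time points, DESeq2 called *Fasn*, *Acaca*, *Acly*, and *Me1* too, but not *Scd1* or *Elovl6*.

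The ages 6 and 12 months lay furthest apart. This comparison uses libraries of the preceding comparisons again, so its values stand beside theirs and add no independent evidence, and it includes the 6-month libraries with high *Saa2*. The cholangiocyte markers (37.5 to 145 CPM at 6 months, 16.3 to 28.3 CPM at 12 months, 1 of 4 tested lower) and the Kupffer cell markers (medians 508 and 325 CPM, 4 of 5 lower) moved with it too, and the part of these genes was not tested. The edgeR test called 9 of 10 members as higher at 12 months, against 5.24% of all genes tested, with a median log2 fold change of 1.72 against 0.00 over all genes. *Pnpla3* (3.39 ± 0.68, adjusted p = 0.0111), *Fasn* (1.99 ± 0.46, 0.0213), *Acly* (1.80 ± 0.33, 0.0069), *Me1* (1.78 ± 0.25, 0.0019), and *Elovl6* (1.77 ± 0.38, 0.0152) had the largest changes. *Srebf1* rose by 1.12 ± 0.23 (0.0117). *Thrsp*, at 1.62 ± 0.55, did not pass (0.0860) but did without ZT1 (2.13, edgeR adjusted p = 0.0170). For *Acly* and *Scd1* all 6 libraries of 12 months lay above all 6 of 6 months (255 against 254 CPM for *Acly* and 5922 against 5417 CPM for *Scd1* at the border), as for 2.04% of all genes. At all 6 ZT *Srebf1*, *Acly*, *Scd1*, and *Me1* were higher at 12 months, 4 of 10 members against 8.21% of all genes. Without ZT9 the count went to 5, and 1 fit of all 18 libraries called all 10.

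**Figure D2:**
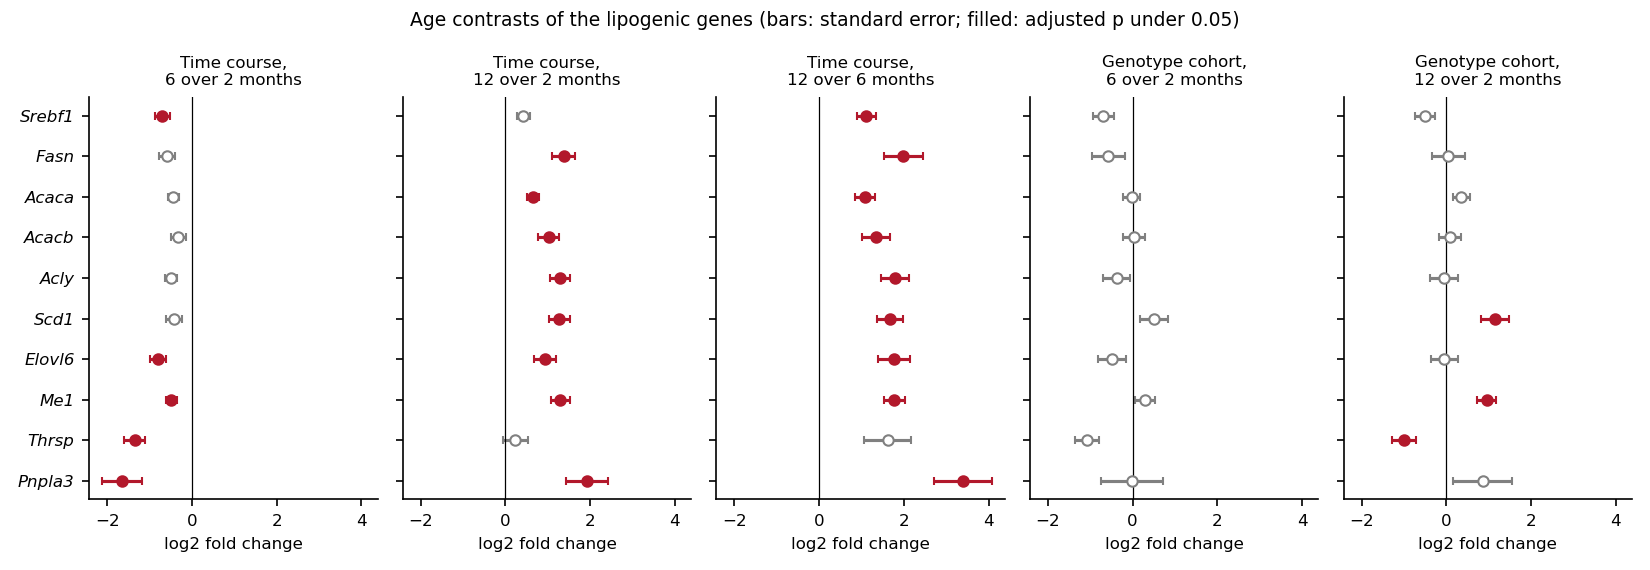
Log2 fold change of each member between ages, with panels for the time course and for the genotype cohort (points, with bars of ± 1 SE from the edgeR fit, filled where the adjusted p was under 0.05). In the time course all 10 members lie below 0 for 6 over 2 months and above 0 for 12 over 2 and 12 over 6 months. *Srebf1* and *Thrsp* are the members that did not pass there for 12 over 2 months. In the cohort the signs are mixed, with 3 members above 0 for 6 over 2 months and 6 for 12 over 2 months. For 12 over 2 months *Scd1* and *Me1* passed there as higher and *Thrsp* as lower.

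The 12-month difference was not present at every time of day. At ZT1, 8 of 10 members were lower at 12 than at 2 months, with a median log2 ratio of -0.39, whereas 9 or 10 of 10 were higher at each other ZT, with medians of 1.61 at ZT5, 1.83 at ZT9, 1.33 at ZT13, 0.88 at ZT17, and 1.23 at ZT21. In the 12-month ZT1 library *Thrsp* was at 251 CPM against 1043 CPM at ZT5, *Elovl6* at 48.8 against 202 CPM, and *Scd1* at 5922 against 16549 CPM. *Srebf1* was the exception, at 359 CPM at ZT1 and 314 CPM at ZT5. The summed level of the 12 fasting-responsive genes was 2135 CPM in that library, within the 2020 to 2601 CPM of the 12-month group. Its hepatocyte marker sum, 96624 CPM, was the lowest of that group (up to 129762 CPM). With 1 library for the time point, a difference at ZT1 and a difference of that library cannot be told apart. Without ZT1 the same 8 members passed from 2 to 12 months and the median log2 fold change was 1.43.

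A daily rhythm was tested in each age with a 24-h cosine curve in edgeR. At 2 months 1 of 10 members passed, against 4.72% of all genes, with 4 of 10 at an unadjusted p under 0.05 (19.5% of all genes). This was *Thrsp*, which ran from 424 CPM at ZT5 to 2580 CPM at ZT13 (amplitude 1.31 on the log2 scale, fitted peak at ZT16.1, adjusted p = 0.0417). At 6 months 3 of 10 passed, against 4.62% of all genes. *Thrsp* ran from 97.6 CPM at ZT5 to 1463 CPM at ZT17 (amplitude 1.77, peak at ZT18.3, adjusted p = 0.0128), a 15.0-fold range. *Srebf1* ran from 110.0 CPM at ZT9 to 296 CPM at ZT17 (0.62, ZT19.3, 0.0422), and *Acly* from 98.8 CPM at ZT9 to 254 CPM at ZT1 (0.79, ZT21.2, 0.0411).
At 12 months none of the 10 passed, against 3.53% of all genes, although 6 of 10 had an unadjusted p under 0.05 (17.2% of all genes) and DESeq2 called 0. *Elovl6* was nearest, with its minimum of 48.8 CPM at ZT1 and its maximum of 518 CPM at ZT13 (amplitude 1.14, peak at ZT13.4, edgeR adjusted p = 0.0530). These calls were fragile: *Thrsp* at 2 months was lost without ZT5, ZT9, ZT13, or ZT17. At 6 months the count of 3 went to 0 without ZT5, ZT9, or ZT17 and to 1 without ZT13, and at 12 months it went to 3 (*Elovl6*, *Fasn*, *Thrsp*) without ZT21 and to 1 without ZT5. An exact permutation test that ranks the 6 values against cosine curves, as JTK does, can reach p = 0.0333 at best before adjustment, and it did so for *Acly* and *Pnpla3* at 2 months, *Thrsp* at 6 months, and *Elovl6* at 12 months, against 8.66%, 8.18%, and 6.43% of all genes.

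The fitted time of the maximum is given as a description, since most curves did not pass and a peak of such a curve has no sure place. At 6 months the fitted peaks of the 10 members lay between ZT13.5 and ZT22.7, and at 12 months between ZT11.3 and ZT14.5. The fitted peak of 7 of 10 members was later at 6 than at 2 months (median shift 2.04 h), and it was earlier for all 10 at 12 than at 6 months (median shift -7.39 h). From 2 to 12 months it was later for 2 of 10 (median shift -2.93 h). The 19 clock genes shifted by medians of 2.73 h from 2 to 6 months (18 later), -1.31 h from 6 to 12 months (4 later), and 1.18 h from 2 to 12 months (18 later), so that over the last pair of ages the medians of the lists had opposite signs. At 12 months the highest library was ZT13 for 7 of 10 members and ZT21 for *Scd1*, *Me1*, and *Pnpla3*, and the lowest was ZT1 for 9 of 10. All members share that ZT1 library, and its part in the fitted peaks of 12 months was not tested. The test of the difference in rhythm itself called 0 of 10 members for each pair of ages in edgeR (all genes: 0.23% for 2 and 6, 0.0% for 2 and 12, and 0.0214% for 6 and 12 months). At an unadjusted p under 0.05 were 2 members for 2 and 6 months (*Srebf1*, *Thrsp*), against 11.3% of all genes, 3 for 2 and 12 months (*Srebf1*, *Fasn*, *Acly*), against 4.45%, and 7 for 6 and 12 months, against 9.5%. DESeq2 called *Srebf1* for 2 and 6 months (adjusted p = 0.0207), none for 2 and 12 months, and *Srebf1* (0.0023) and *Acly* (0.0061) for 6 and 12 months.

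In the genotype cohort the targeted gene was looked at first. *Egr1* was lower in the library labelled KO in 4 of 6 pairs, most clearly at 12 months L (54.8 CPM in WT, 1.53 CPM in KO) and 6 months H (72.4 against 5.54 CPM). At 6 months L it was 24.9 against 4.92 CPM and at 2 months H 2.57 against 1.99 CPM. It went against the label at 2 months L (1.45 CPM in WT, 7.43 CPM in KO) and was nearly even at 12 months H (5.83 against 6.11 CPM). Over the 6 pairs *Egr1* itself did not pass the edgeR test of KO against WT (log2 fold change -1.76 ± 0.79 SE, unadjusted p = 0.0491, adjusted p = 0.324). A member that does not pass this test is thus not shown to be unchanged. The libraries are therefore named by their labels.
Over the 6 pairs, none of the 10 members passed the edgeR test of KO against WT in either direction, against 1.36% of all genes tested. At an unadjusted p under 0.05 was 1 member, against 15.3% of all genes, *Acacb* (log2 fold change -0.27 ± 0.11 SE, unadjusted p = 0.0314, adjusted p = 0.270), and DESeq2 called 0. The log2 fold changes were negative for 9 of 10 members, with a median of -0.22 against -0.01 over all genes, and ran from -0.62 for *Pnpla3* to 0.25 for *Me1*. With library totals in place of TMM the median over all genes moved to 0.11, and 8 of 10 were negative. *Fasn* was 509 to 1613 CPM in WT (median 1370) and 471 to 1543 CPM in the libraries labelled KO (median 1019). *Scd1* was 8284 to 18821 CPM in WT (median 10779) and 4854 to 21026 CPM in KO (median 11777). For every member the genotypes overlapped. The part of the lower *Alb* in these values was not tested.

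The pairs did not move together. The libraries labelled KO had lower levels of 9 of 10 members at 2 months H, 2 months L, and 6 months H, with median log2 ratios of -0.20, -0.75, and -0.38, and lower levels of all 10 at 12 months L (-0.50). At 6 months L the sign was turned, with 9 of 10 higher and a median of 0.98. *Fasn* was 509 CPM in that WT library and 1543 CPM in the library labelled KO, *Scd1* was 11602 and 18664 CPM, *Thrsp* 697 and 1837 CPM, and *Srebf1* 249.8 and 510.0 CPM. Only *Acacb* was lower there (205 and 145 CPM). At 12 months H 7 of 10 were higher with a median of 0.07.
No member moved the same way in all 6 pairs, against 4.79% of all genes lower and 5.33% higher in all 6. *Me1* was higher in KO in 5 of 6 pairs, and *Srebf1*, *Fasn*, *Acacb*, and *Thrsp* were lower in 5 of 6. The fasting-responsive sum was highest of all 12 libraries in WT at 6 months L, 8049 CPM against 5577 CPM in KO, and its part in the result was not tested. Without the pair of 6 months L, 1 member passed, *Srebf1* (-0.43, edgeR adjusted p = 0.0405), and the median log2 fold change was -0.39. Leaving out any other single pair, none passed. Without the 2 pairs in which *Egr1* was not lower in KO, none passed and 7 of 10 were negative. Tests of whether the genotype effect differed between ages, or between H and L, called 0 members in edgeR and in DESeq2 (all genes: 0.0135% and 0.00674%), with 1 member each at an unadjusted p under 0.05 (3.22% and 5.07% of all genes), *Acaca* by age (unadjusted p = 0.0401) and *Acacb* between H and L (L minus H, -0.47 ± 0.17, unadjusted p = 0.0195).

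**Figure D3:**
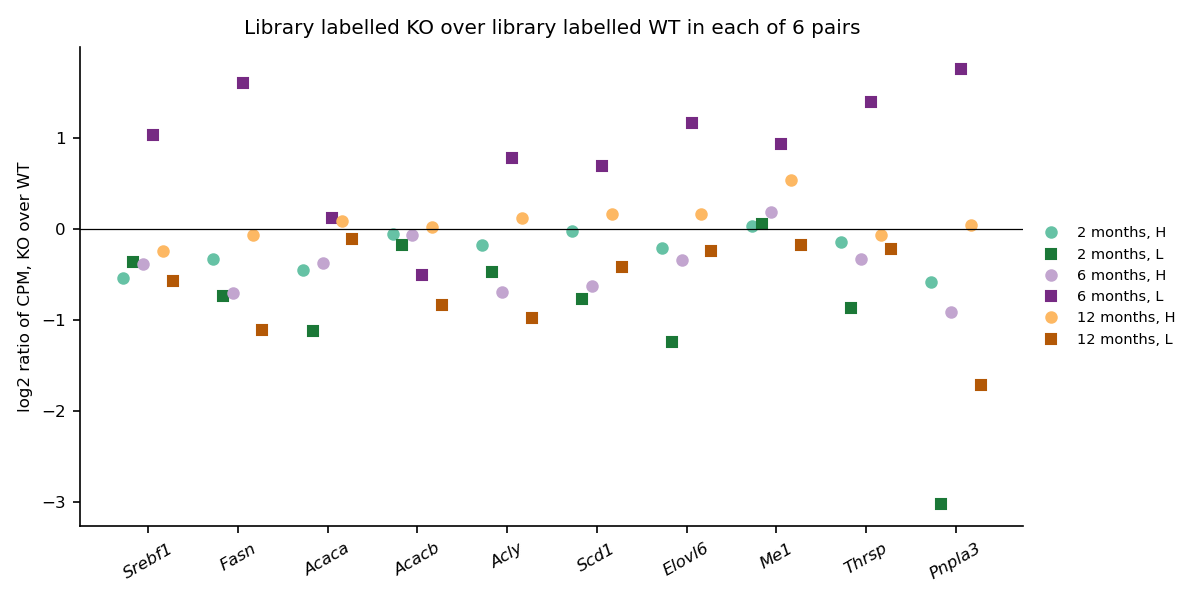
Log2 ratio of KO over WT (vertical axis) for each member (columns of points) in each of the 6 pairs of libraries of the genotype cohort, with a line at 0. The points of 6 months L lie above 0 for all members but *Acacb*, up to 1.76 for *Pnpla3*. The points of 12 months L lie below 0 for all 10.

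With age in the same cohort, the members split. The fit took all 12 libraries with genotype and H or L as covariates; since H and L fall at other ZT at each age, age and time of day cannot be told apart here. From 2 to 12 months *Scd1* (1.15 ± 0.32, edgeR adjusted p = 0.0405) and *Me1* (0.95 ± 0.23, 0.0207) were higher, against 5.15% of all genes tested, and *Thrsp* (-0.99 ± 0.28, 0.0422) was lower, against 6.52%. *Scd1* was 4854 to 9956 CPM in the 4 libraries of 2 months and 13762 to 21026 CPM in those of 12 months, without overlap. *Me1* was 197 to 281 CPM at 2 months and 397 to 576 CPM at 12 months, also apart, and *Thrsp* was 1540 to 2821 CPM and 1079 to 1259 CPM, apart as well. Of all genes, 7.91% lay wholly higher and 11.7% wholly lower at 12 months in these 4 and 4 libraries.
The 7 others did not pass and ranged from -0.49 (*Srebf1*) to 0.86 (*Pnpla3*). *Fasn*, with 1.37 in the time course, was at 0.05 ± 0.39 here. All 3 calls were lost when either pair of libraries of 2 months or of 12 months was left out, and DESeq2 kept *Scd1* and *Me1* but not *Thrsp*; without the pair of 6 months L *Srebf1* passed as lower too. From 2 to 6 months none passed, against 2.61% of all genes, with 2 members at an unadjusted p under 0.05 (17.6% of all genes), *Thrsp* (-1.07 ± 0.28, edgeR adjusted p = 0.0738) and *Srebf1* (-0.69 ± 0.24, 0.151). DESeq2 called *Srebf1* alone (adjusted p = 0.0398). In the time course these values were -1.35 and -0.69. Without the pair of 6 months L both passed as lower in edgeR (-1.34 and -0.99, adjusted p = 0.0237 and 0.0154) and all 10 members were negative, with a median of -0.91. Without the pair of 6 months H none passed, 5 members were positive and 5 negative, and the median was 0.12. The result at 6 months in the cohort thus depended on which pair was kept.

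How far libraries of 1 age and ZT can lie apart was read from the 6 WT libraries of the cohort and the time-course libraries of the same age and ZT. The tables were counted separately and hold C57BL/6J mice on 1 side and controls of the KO line on the other, so this is a description with 1 library on each side. The WT library was higher in 50 of 59 values, with a median log2 ratio of 0.78, while the median of all genes was 0.25 to 0.31 in each pair. The ratio was largest at 6 months H (ZT9), with a median over the members of 1.5, where *Thrsp* was at 1070 against 154 CPM and *Fasn* at 767 against 138 CPM. At 2 months the medians were 0.87 and 0.91 and at 6 months L 1.04. At 12 months they were 0.25 at H and -0.16 at L, and *Scd1* was at 18821 against 16549 CPM and at 18435 against 20259 CPM. By member, the median ran from 0.18 for *Thrsp* to 1.10 for *Fasn* and 1.95 for *Pnpla3* (5 values). At 6 months the sides also differed in *Saa2* (3079 CPM or more in the time course, at most 212 CPM in the cohort), whose part in these distances was not tested. At 2 months, without such a *Saa2* level on either side, the medians of 0.87 and 0.91 stood beside all-gene medians of 0.31 and 0.25. The median log2 fold changes between ages, -0.54 and 1.15, had all-gene medians of 0.00 and came from fits of 12 libraries. Ratios of single libraries are not of 1 kind with these fold changes, and their medians at 12 months were 0.25 and -0.16.

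**Figure D4:**
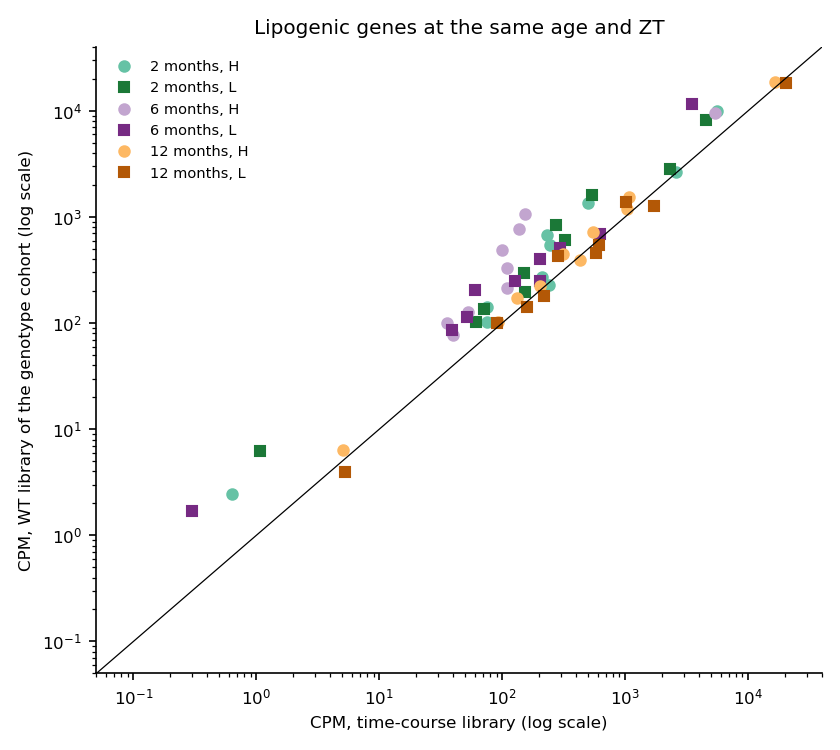
Level of each member (CPM, both axes on a log scale) in the WT library of the genotype cohort against the time-course library of the same age and ZT, 1 point for each member and pair, with the line of equal levels. Points of 2 and 6 months (green and purple) lie mostly above the line and those of 12 months (orange and brown) close to it.

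Some of the genes that feed the pathway changed in the time course. Of all genes tested, 6.01% were called lower and 5.53% higher from 2 to 6 months. From 2 to 12 months these shares were 6.85% and 7.67%, and from 6 to 12 months 5.0% and 5.24%. The counts of the lists that follow stand beside these shares. Of 14 genes that supply glucose carbon, acetyl-CoA, or NADPH, 4 were lower from 2 to 6 months, among them *Pklr*, the liver pyruvate kinase (-1.15), *Acss2* (-0.67), and *Khk*, fructokinase (-0.43), and 0 were higher. From 2 to 12 months 6 were higher and 0 lower, among them *G6pdx*, which yields NADPH (1.04), *Slc25a1*, the citrate carrier (0.52), and *Pgd* (0.56). From 6 to 12 months 8 were higher and 0 lower, with *Acss2* at 1.74 and *Pklr* at 1.5. The medians of the list were -0.19, 0.31, and 0.52 on the log2 scale, against 0.00 over all genes.
Of 13 genes of elongation, desaturation, and handling of fatty acids, 4 were lower from 2 to 6 months (*Fads2*, *Elovl2*, *Elovl5*, and *Mlycd*, -0.61 to -0.28) and 1 higher (*Scd2*, 0.62), and 5 were higher from 2 to 12 months, led by *Elovl5* (0.88), with *Slc27a5* lower (-0.30). From 6 to 12 months 7 were higher and 0 lower. *Mlycd*, *Slc27a5*, *Insig2*, and *Pck1* are named after their values were seen.
Of 21 regulators, at most the 4 with the smallest p are named per comparison, besides *Insig2*. The counts of regulators called between ages are not given here. *Scap*, the escort of SREBP (-0.47), *Mlxipl*, which encodes ChREBP (-0.62), and *Prkaa2* (-0.46) were lower and *Nfyb* (0.51) higher from 2 to 6 months. From 2 to 12 months *Pparg* (1.25, edgeR adjusted p = 3.09e-05), *Nfyb* (0.56), and *Usf2* (0.29) were higher and *Mbtps2* (-0.50) and *Insig2*, which retains SCAP (-0.60), lower. From 6 to 12 months *Mlxipl* (0.72), *Pparg* (0.75), and *Scap* (0.45) were higher. Between genotypes *Mlxipl* (-0.38, edgeR adjusted p = 0.0225) and *Scap* (-0.45, 0.0387) were the 2 regulators lower in the libraries labelled KO, against 0.721% of all genes. None was higher, against 0.64% of all genes. No gene of supply, elongation, or cholesterol synthesis passed between genotypes in edgeR, with 1, 3, and 0 at an unadjusted p under 0.05 (15.3% of all genes). Of 12 genes of cholesterol synthesis, targets of the related factor SREBP-2, 1 was higher from 2 to 6 months (*Idi1*, 0.81) and 0 lower, unlike the members in sign of the median (0.50). From 2 to 12 months 7 were higher, with *Fdps* at 1.42. Of the 12 fasting-responsive genes, 4 were lower and 0 higher from 2 to 6 months, 4 higher and 2 lower from 2 to 12 months, and 5 higher and 0 lower from 6 to 12 months; *Cyp4a14* was at 2.11 and *Pck1* at -0.87 from 2 to 12 months.

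The members moved closely with each other in the time course, with a median Pearson r of 0.83 over the 45 pairs of members (18 libraries, log2 of CPM + 0.5), from 0.52 for *Scd1* and *Thrsp* to 0.96 for *Fasn* and *Acly*. In the cohort the median was 0.52 (12 libraries), from -0.15 for *Me1* and *Thrsp* to 0.92 for *Srebf1* and *Thrsp*. These libraries share ages and times of day, and the values are descriptions. With the mean of the 10 standardized members, *Fasn* had the highest r among members in the time course, 0.98, and *Srebf1* the lowest, 0.78. The 5 other genes most like that mean were *Tkt* (transketolase of the pentose phosphate pathway, r = 0.96), *Pdk1* (0.94), *Cyb5r3* (0.92), *Gbe1* (0.91), and *Dlat* (0.91). In the cohort they were *Cyp3a11* (0.90), *Fam83f* (0.89), *Macrod2* (0.87), *Cs*, citrate synthase (0.85), and *Zfyve21* (0.85), so that no gene was in both lists.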

How the data were processed

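Liver mRNA was sequenced by the authors from poly(A) RNA, aligned with HISAT2 after trimming with fastp, and counted with featureCounts on mm10, per the submitters' processing notes (versions not given in the sources used here). The authors deposited whole-number counts per gene without normalization, in 1 table by symbol (18 libraries) and 1 by Ensembl identifier (12 libraries), and 0 columns of values were left out. No 2 libraries held identical counts. The 10 genes and all lists were chosen with earlier results of these data known.

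CPM used library totals times TMM factors. Tests used edgeR 4.0.16 (R 4.3.3) quasi-likelihood F-tests on genes passing filterByExpr, with Benjamini-Hochberg adjustment over all genes tested and a threshold of 0.05; SE were taken from the F statistic. Ages were compared with ZT as a block over the 12 libraries of both ages, rhythms with 24-h cosine and sine terms, and genotypes with the pair of libraries as a block. DESeq2 1.42.0, other scalings, no filter, and leaving out each time point or pair were alternatives. The exact test used all 720 orders of 6 values. The fits were also run on simulated counts with known changes, and how many of these were recovered is not reported here. Named genes of other lists were those past the threshold, at most 4 with the smallest p per list and comparison. The 5 genes most like the members had a mean of at least 1 CPM. Lengths are sums of annotated exons, and intervals and the floor of 3 counts cover counting error only. Egr-1 protein, quantitative PCR, and lipids were not analysed here. Values of a few single genes of the supply and cholesterol lists are not reported here.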

Additional observations from a re-analysis of the deposited data

Results flagged for a closer look

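Of 38 groups of 6 log2 ratios tested, 5 held a value far from the other 5 (its gap to the nearest, over the whole range, was above Dixon's critical value; chance gives about 1 in 20 groups). The ratios of 1 gene and of its neighbours in the pathway share libraries, so these values are not independent of each other.

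At ZT1 the log2 ratio of 12 over 2 months was -0.30 for *Acaca* (others 0.58 to 1.00), -0.98 for *Elovl6* (others 1.02 to 1.5), and -0.28 for *Me1* (others 1.35 to 1.75). All 3 values come from the same pair of libraries.

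In the pair of 6 months L the log2 ratio of KO over WT was 1.03 for *Srebf1* (others -0.58 to -0.24) and 1.40 for *Thrsp* (others -0.87 to -0.06). *Egr1* was lower in the KO library of that pair, as its label says.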

How the results depend on the processing

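No member called in either fit changed its sign under an alternative, and between ages in the time course no member did. Signs of members that did not pass turned in the cohort, for up to 2 members between genotypes and up to 3 from 2 to 6 and from 2 to 12 months; without the pair of 6 months L these were *Scd1*, *Me1*, and *Acacb*, positive from 2 to 6 months with it and negative without it. Apart from the exact test, the share of all genes called under each alternative is not given here, so the counts below cannot be set against it. Without a filter on low counts, 9 members were lower from 2 to 6 months (5 in the test as reported), and with DESeq2 8 and with all 18 libraries in 1 fit 1. For the rhythm at 2 months, no filter, DESeq2, and the exact test gave 2 members each (1). At 6 months the exact test gave 1 (3), and at 12 months library totals, no filter, and the exact test gave 1 each (0). For the change of rhythm DESeq2 gave 1 between 2 and 6 months and 2 between 6 and 12 months (0 and 0). In the cohort, no filter and DESeq2 gave 1 lower from 2 to 6 months (0), and DESeq2 gave 0 lower from 2 to 12 months (1). The other 90 counts of members were within 1.5 times of those reported.

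Leaving out 1 time point or pair moved the counts of members between these limits: 2 and 4 lower from 2 to 6 months, 5 and 8 higher from 2 to 12 months, 5 and 10 higher from 6 to 12 months, 0 and 3 for the rhythm at 2 months, 0 and 4 at 6 months, 0 and 3 at 12 months, 0 and 1 lower between genotypes, 0 and 2 lower from 2 to 6 months in the cohort, and 0 and 2 higher and 0 and 2 lower from 2 to 12 months there; the cause was not tested. Without the block for the pair, 0 members differed between genotypes, as with it. Depth limits *Pnpla3* most, with 0 to 133 counts per library, and the spread between mice of 1 group was not measured.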
